A study of Mus musculus with 6 samples.

Results

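The enzymes that make, break down and read out cyclic AMP were compared between 2 inbred mouse strains, A/J and DBA/2J, in the carotid body, an organ beside the carotid artery that senses blood oxygen. Members were all probe sets of the Affymetrix Mouse 430 2.0 array whose platform annotation names a single gene, and that gene is an adenylate cyclase (Adcy1 to Adcy10), a cyclic nucleotide phosphodiesterase (Pde followed by a number and a letter) or a subunit of protein kinase A. This gave 100 of 45101 probe sets, for 39 genes: 22 probe sets for 10 cyclases, 58 for 23 phosphodiesterase genes and 20 for 6 kinase subunits. A probe set is a group of short probes on the array that together read 1 stretch of transcript, and several probe sets can report on the same gene. Both groups were untreated males aged 28 days. The A/J group had 3 arrays, hybridised with RNA pooled from 20, 21 and 19 mice, and the DBA/2J group had 3 arrays from pools of 19, 18 and 19 mice. The spread between arrays is therefore that between pools, not between mice. The labels give no other allele or agent.

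Cyclic AMP is made from ATP by adenylate cyclases, which G protein alpha subunits switch on or off in response to receptors at the cell surface. It releases the catalytic subunits of protein kinase A (PKA) from their regulatory subunits, and phosphodiesterases end the signal by hydrolysing cyclic AMP or its relative cyclic GMP. In the type I (glomus) cells of the carotid body, which sense low oxygen, cyclic AMP has long been studied as a modulator of ion channels and transmitter release.

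Median signals of the 6 arrays lay between 163.6 and 183. Correlations of log2 values across all probe sets were 0.939 to 0.964 for arrays of the same strain and 0.925 to 0.946 for arrays of different strains; probe sets are not independent replicates. The ratio of the 3' to the 5' Gapdh control probe sets, a sign of transcript length, was 4.87 on A/J array 2 and between 1.73 and 3.28 on the others. The summed signal of 13 type I cell markers lay between 25614 and 29983 on the A/J arrays and between 51616 and 55715 on the DBA/2J arrays, with 5 of 13 called higher and 0 called lower. The tissue label thus had its defining markers on every array. Of 16 skeletal muscle markers 15 were called lower in DBA/2J, and their sum lay between 53637 and 133414 on the A/J arrays and between 1872 and 3733 on the DBA/2J arrays. Mast cell sums were higher in DBA/2J without overlap (4858.5 to 5175 in A/J, 11530 to 17614 in DBA/2J). So were endothelial sums (6575 to 7390, 8088 to 9950) and those of the mostly dim photoreceptor markers (343 to 433, 759 to 1039). Not every marker followed its sum. Among 8 mast cell markers 2 were called higher, and Hdc was called lower. The ratio of means, DBA/2J over A/J, was 30.8 for Mcpt2 and 0.28 for Hdc. Among 8 endothelial markers 0 were called, with ratios from 0.65 to 0.96 for Pecam1, Cdh5, Tek and Tie1. Kdr, Emcn, Cldn5 and Egfl7 were at 1.30 to 1.61. Gnb3, the 1 photoreceptor marker bright enough to test, was at 2.79. Sums of adipocyte, glia, macrophage and erythroid markers were lower in DBA/2J without overlap. In pooled tissue, fewer cells of a type and less RNA per cell cannot be told apart.

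Most members, like most of all tested probe sets, differed between the strains by less than 0.5 on the log2 scale. A single member, Pde1b, passed the test. Of the 100 member probe sets, 66 were bright enough to be tested, for 33 of the 39 genes. Log2 differences subtract the A/J from the DBA/2J mean of log2(signal + 16) and were tested with limma over all 27022 probe sets kept, with Benjamini-Hochberg adjustment and a threshold of 0.05. Of the 66, 1 was called higher and 0 lower, or 1.52% in all, where 3.27% of all tested probe sets were called, 1.86% higher and 1.41% lower. Without adjustment, 14 of 66 had a limma p under 0.05, or 21.2%, beside 15.3% of all tested. The 3 DBA/2J signals lay entirely above or below the 3 A/J signals in 17 of 66 members (25.8%), 10 of them higher and 7 lower, where 21.1% of all tested probe sets did so. The median log2 difference of the members was -0.06, beside 0.01 over all tested probe sets, with 30 of 66 positive. In absolute value the median was 0.35 in members and 0.23 over all tested. Of the members, 50 of 66 (75.8%) differed by less than 0.5, beside 80.0% of all tested. Probe sets of 1 gene can read the same or different transcripts of it, so that these counts do not stand for independent genes.

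**Figure D1:**
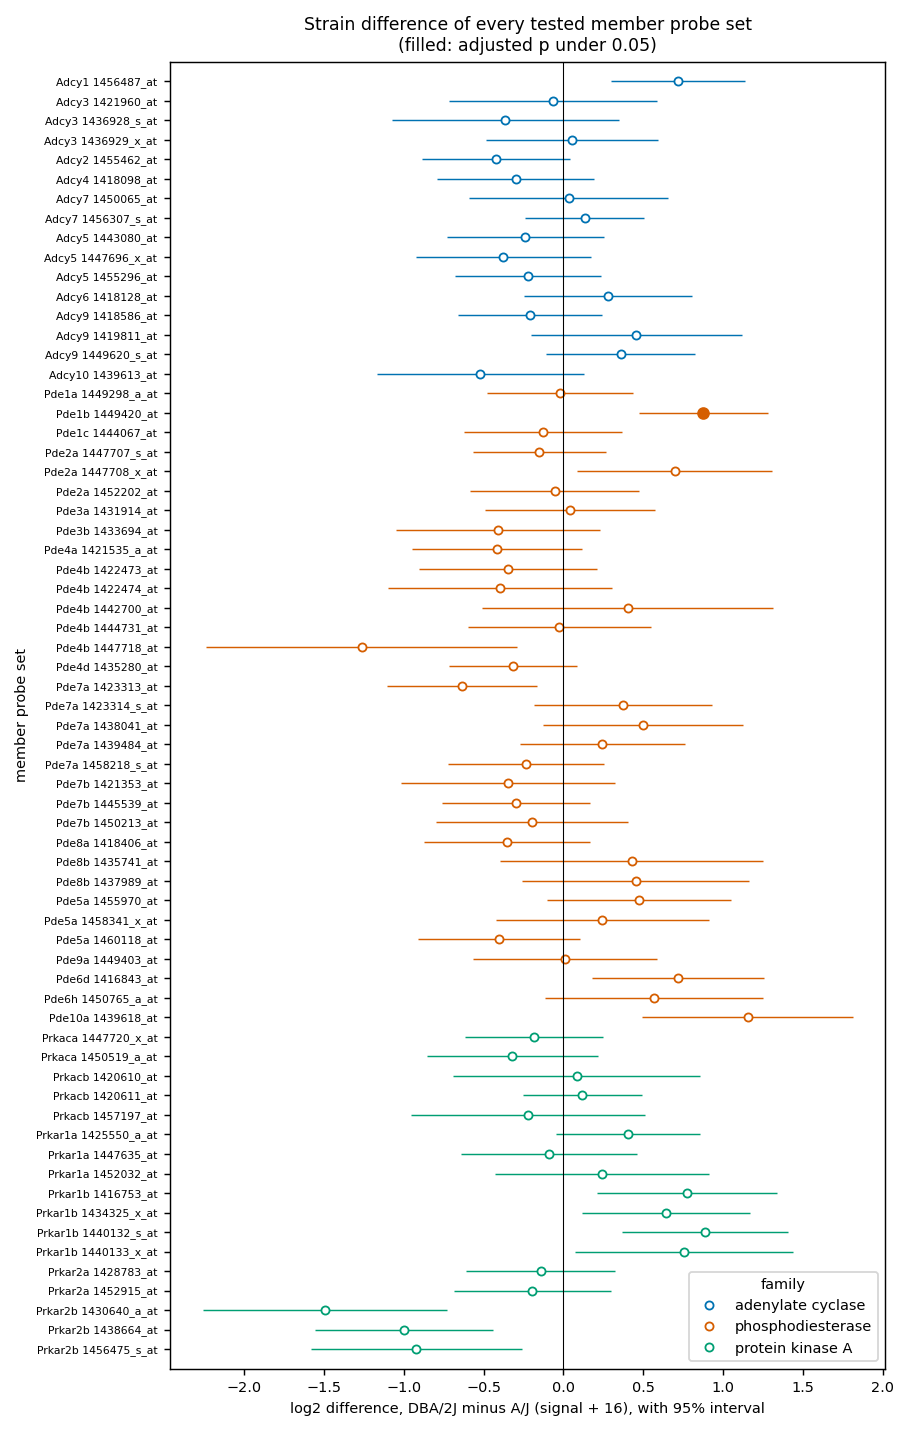
Log2 difference between strains (DBA/2J minus A/J, of signal + 16; horizontal axis) for each of the 66 tested member probe sets (vertical axis), coloured by enzyme family, with bars for the 95% interval of the limma fit. The filled point, Pde1b at 0.88, is the 1 member called; the 4 probe sets of Prkar1b lie to the right of 0 and the 3 of Prkar2b to the left.

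Most adenylate cyclases are membrane enzymes, and they differ in how calcium and G proteins act on them. Of their 16 tested probe sets, 0 were called and 1 had an unadjusted limma p under 0.05, with a median log2 difference of -0.14. That one reports on Adcy1, a calcium-calmodulin-stimulated cyclase known best from neurons. Its signals were 541, 573 and 639.6 on the A/J arrays and 977, 1077 and 866 on the DBA/2J arrays. The DBA/2J values lay above all 3 A/J values, with means of 585 ± 50.4 and 973 ± 106 (SD, n = 3 arrays each). The log2 difference was 0.72 (SE 0.19, 95% interval 0.30 to 1.14), and the adjusted p from limma was 0.0836, so that Adcy1 did not pass. A dim probe set of the same gene, with signals from 28.4 to 80.9, was not tested.

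The other calcium-stimulated cyclases are Adcy3 and Adcy8. The 3 tested probe sets of Adcy3, the cyclase of olfactory cilia, ran from -0.36 to 0.05, and on all 3 the strains overlapped. Adcy8 was too dim to test, at 44.5, 41.3 and 48.9 in A/J and 65.1, 58.4 and 66.9 in DBA/2J, without overlap.

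Among cyclases that G protein beta-gamma subunits stimulate, Adcy2 was 478, 403 and 501 in A/J and 392.5, 287 and 343 in DBA/2J. All 3 DBA/2J values lay below the A/J values, with a log2 difference of -0.42 (adjusted p = 0.383, limma). Adcy4 was at -0.30, and the 2 tested probe sets of Adcy7 were at 0.03 and 0.13. Of the cyclases that calcium inhibits, Adcy5, the main cyclase of the striatum, had 3 tested probe sets from -0.38 to -0.22, and Adcy6 was at 0.28. One Adcy5 probe set separated the strains without overlap, at 156, 155 and 154 in A/J and 136, 126 and 125 in DBA/2J, a log2 difference of -0.24 (adjusted p = 0.692, limma). For Adcy9, which forskolin activates poorly, 3 probe sets disagreed, from -0.21 to 0.46. One of them, 1449620_s_at, was 323, 405 and 370 in A/J and 409, 567 and 454 in DBA/2J. The strains did not overlap there, with a log2 difference of 0.36 (adjusted p = 0.479, limma). Adcy10, the soluble cyclase that bicarbonate activates and a candidate carbon dioxide sensor, was 130.4, 179 and 184 in A/J and 127.5, 134 and 73.8 in DBA/2J. Its arrays overlapped, with a log2 difference of -0.52 (95% interval -1.17 to 0.13, adjusted p = 0.456, limma).

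Phosphodiesterases showed the 1 called member. Of 33 tested probe sets, Pde1b was called higher, 32 did not pass and 0 were called lower, with a family median of -0.03. Pde1b belongs to the phosphodiesterases that calcium and calmodulin activate, which hydrolyse both cyclic AMP and cyclic GMP. Its signals were 341, 358 and 326 on the A/J arrays and 620, 628 and 672 on the DBA/2J arrays. The strains were well apart and each was tight, at 342 ± 16.1 and 640.3 ± 28.1 (SD, n = 3 arrays each), a ratio of means of 1.87. The log2 difference was 0.88 (SE 0.18, 95% interval 0.47 to 1.28, limma adjusted p = 0.0329), and each of the 9 pairs of a DBA/2J with an A/J array reached 1.5-fold. Without each array in turn the difference stayed between 0.84 and 0.91, but the adjusted p was 0.0419 without DBA/2J array 2 and lay between 0.0714 and 0.140 without any other array. The called rise of Pde1b came with the higher type I cell, mast cell, endothelial and photoreceptor marker sums given above. The part of these sums in it was not tested. The gene has 1 member probe set, so that no other probe set could be set beside it. Pde1a at -0.02 and Pde1c at -0.13 were close to 0 on their tested probe sets, with 95% intervals of -0.48 to 0.43 and -0.62 to 0.37.

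The promoter of Pde1b at 1 of its 3 RefSeq starts is shown because the gene carries the 1 called difference. It lies at chr15:103502784-103503083 on the plus strand of GRCm38.p6, from 250 bases before to 50 bases after the start. Capitals mark the GC box GGGCGG on either strand, of which there are 2. The core TGACG of the cyclic AMP response element, searched on both strands, has no match in this window or in those of the other 2 starts.
Pde1b: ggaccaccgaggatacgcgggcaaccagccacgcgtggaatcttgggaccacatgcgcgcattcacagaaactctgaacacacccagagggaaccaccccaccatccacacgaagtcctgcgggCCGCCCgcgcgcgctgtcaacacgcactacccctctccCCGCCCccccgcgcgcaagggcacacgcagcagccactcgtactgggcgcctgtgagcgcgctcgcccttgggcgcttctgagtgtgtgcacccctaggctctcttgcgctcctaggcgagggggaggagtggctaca

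Pde10a, a phosphodiesterase of both nucleotides known from striatal neurons, had the largest positive log2 difference among tested members. Its tested probe set was at 323, 142 and 186 in A/J and 478, 414 and 543 in DBA/2J. The groups did not overlap, but A/J array 1 lay well above the other A/J arrays. The log2 difference was 1.15 (SE 0.29, 95% interval 0.49 to 1.81, adjusted p = 0.0756, limma). Without A/J array 1 it was 1.46, with an adjusted p of 0.0330. Without any other single array Pde10a did not pass, with differences down to 0.91 and adjusted p up to 0.238 (limma). Its other 4 probe sets were too dim to test, at signals from 8.4 to 213, as were both of Pde11a, another enzyme of both nucleotides.

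Of 5 tested probe sets of the phosphodiesterases that cyclic GMP regulates, 0 were called and 1 had an unadjusted limma p under 0.05. Pde2a, which cyclic GMP stimulates, had 3 probe sets at -0.15, -0.06 and 0.70 (adjusted p = 0.778, 0.948 and 0.252, limma). Pde3a and Pde3b, which cyclic GMP inhibits, were at 0.04 and -0.41. Pde3b, the isoform through which insulin restrains lipolysis in fat cells, was 3643, 2455 and 2095.5 in A/J and 1691, 2893 and 1616 in DBA/2J. The high DBA/2J value was on array 2, which also had the highest adipocyte marker sum of its strain, 40018 beside 24726 and 25818. Sums of skeletal muscle, glia, neuron, macrophage, lymphocyte and erythroid markers were likewise highest on that array within DBA/2J. What part any of these markers had in the Pde3b values was not tested.

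The phosphodiesterases specific for cyclic AMP, families 4, 7 and 8, had 18 tested probe sets, 0 of them called and 2 with an unadjusted limma p under 0.05, with 6 positive and a median of -0.27. Pde4a, Pde4d, Pde7b and Pde8a were at -0.42, -0.31, from -0.35 to -0.20 and at -0.36, and both probe sets of Pde8b were positive, at 0.43 and 0.45. Pde4d, a long-studied regulator of beta-adrenergic signalling in muscle, was 1293, 1158 and 1195 in A/J and 969, 1071 and 887 in DBA/2J. Its strains did not overlap, with a log2 difference of -0.31 (95% interval -0.72 to 0.09, adjusted p = 0.466, limma).

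Probe sets disagreed most for Pde4b and Pde7a. The 5 tested probe sets of Pde4b ran from -1.26 to 0.40. The lowest of them was at 549, 151.5 and 375 in A/J and 96.1, 180.2 and 105.5 in DBA/2J, with an adjusted p of 0.188 (limma). A/J array 2 lay below DBA/2J array 2 there, and without A/J array 2 the log2 difference was -1.76 with an adjusted p of 0.0379. Without any other single array this probe set did not pass. The 5 tested probe sets of Pde7a ran from -0.63 to 0.50. Its lowest was at 229.5, 225 and 233 in A/J and 129, 148 and 149 in DBA/2J, without overlap (adjusted p = 0.167, limma), while 3 of its probe sets were positive. Neither gene thus had a single direction. Among the 16 member genes with at least 2 tested probe sets, the probe sets pointed one way in 8 and both ways in 8.

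Of 4 tested probe sets of phosphodiesterases specific for cyclic GMP, 0 were called and 0 had an unadjusted limma p under 0.05. Pde5a, the sildenafil target of vascular smooth muscle, had 3 probe sets from -0.40 to 0.47, and Pde9a was at 0.01. Of the photoreceptor family, the catalytic Pde6a, Pde6b and Pde6c and the inhibitory Pde6g were too dim to test, with signals from 5.1 to 170. Pde6a was at 92.9, 85.8 and 72.6 on the A/J arrays and at 9.6, 25.1 and 38.1 on the DBA/2J arrays, without overlap, and its adjusted p was 0.106 when dim probe sets were tested too (limma). Of 6 photoreceptor markers, 5 were also too dim to test, and Gnb3 was called higher. Pde6h, the inhibitory subunit of cones, had 1 tested probe set, at 0.57 (adjusted p = 0.436). Pde6d, which is a carrier of prenylated proteins in many tissues and no enzyme, was 715, 409 and 679 in A/J and 989, 948 and 979 in DBA/2J. Its groups did not overlap, with a log2 difference of 0.72 (SE 0.24, adjusted p = 0.174, limma). The lowest of its values was on A/J array 2, the array with the Gapdh ratio of 4.87, and without it the log2 difference was 0.47 (adjusted p = 0.323).

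No probe set of protein kinase A passed the test, and the regulatory subunits Prkar1b and Prkar2b stood at opposite signs. The 5 probe sets of the catalytic subunits Prkaca and Prkacb ran from -0.32 to 0.12, and all overlapped between strains. The brighter probe set of Prkaca was at 3578 ± 754 for A/J and 3103 ± 122 for DBA/2J, that of Prkacb at 2187 ± 199 and 2370 ± 108 (SD, n = 3 arrays each). The log2 differences of these, -0.18 and 0.12, had 95% intervals of -0.61 to 0.25 and -0.26 to 0.49. Of the 12 tested probe sets of regulatory subunits, 0 were called, while 7 had an unadjusted limma p under 0.05 and 8 separated the strains without overlap, where 15.3% and 21.1% of all tested probe sets did. The 8 report on 3 genes, Prkar1a, Prkar1b and Prkar2b.

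Prkar2b encodes RII beta, the regulatory subunit typical of fat cells and brain. On its first probe set, 1430640_a_at, signals were 2133.5, 1236 and 1309 in A/J and 416, 888 and 393 in DBA/2J. On 1438664_at they were 3048, 2499 and 2655.5 in A/J and 1093, 1977 and 1149 in DBA/2J. On 1456475_s_at they were 4439, 3545 and 3534 in A/J and 1465, 3295 and 1676 in DBA/2J. All 3 probe sets were lower in DBA/2J without overlap, and on each of them DBA/2J array 2 lay nearest to the A/J values. That array had a Gapdh ratio of 3.28, the highest of its strain. The log2 differences were -1.49, -1.0 and -0.92 (SE 0.34, 0.25 and 0.29), with limma adjusted p of 0.0508, 0.0683 and 0.154, so that none passed. Without DBA/2J array 2 they were -1.86, -1.27 and -1.28, with adjusted p of 0.00474, 0.00623 and 0.00683. Leaving out that array also raised the calls over all tested probe sets from 883 to 1351. Without any other single array none of the 3 passed. The differences then shrank to as little as -1.25, -0.85 and -0.70, with adjusted p as high as 0.213, 0.267 and 0.448 (limma). In 11 of 16 alternatives 1430640_a_at did not pass. It also passed at -1.51 with arrays scaled to one median (adjusted p = 0.0368) and at -1.41 with a pseudocount of 64 (0.0471). The others were -1.49 with the upper 40% of probe sets (0.0484) and -1.68 with array weights (0.00288). A/J and DBA/2J arrays 2 share a number in their titles, as do arrays 3. DBA/2J minus A/J was -0.47, -0.34 and -0.105 between arrays 2, and -1.69, -1.20 and -1.07 between arrays 3.

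Within each strain, the summed adipocyte markers and Prkar2b were highest on the same array. The summed signal of 8 adipocyte markers was 69146, 48408 and 56441 on the A/J arrays and 24726, 40018 and 25818 on the DBA/2J arrays. The highest DBA/2J sum was on array 2, and the highest A/J sum on array 1, as for all 3 Prkar2b probe sets. Of these markers Ucp1 and Fabp4, a brown fat uncoupler and a fatty acid carrier, were called lower in DBA/2J, 0 were called higher, and Lep was too dim to test. Ucp1 was highest on A/J array 1 (24394) and, within DBA/2J, on array 2 (10302). Fabp4 was highest on A/J array 2, at 21096 beside 18016 on array 1, and within DBA/2J on array 2 (12099). Skeletal muscle markers also fell, as given above, and their sum was likewise highest on A/J array 1 and, within DBA/2J, on array 2. Sums of glia, neuron, macrophage, lymphocyte and erythroid markers were also highest on array 2 within DBA/2J. Within A/J, of these only the lymphocyte sum was highest on array 1. Type I cell, smooth muscle, endothelial, mast cell and photoreceptor sums were highest on other DBA/2J arrays. What part fat, muscle or any other cell type had in the Prkar2b values was not tested.

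Prkar1b encodes RI beta, a regulatory subunit found mainly in nervous tissue. On probe set 1416753_at its signals were 1160.5, 591 and 879 in A/J and 1458, 1378 and 1539 in DBA/2J. On 1440132_s_at they were 904, 828 and 1446 in A/J and 1918.5, 1918 and 1902 in DBA/2J. The DBA/2J arrays lay close together and above all A/J arrays, of which array 2 was the lowest. The same held for 1434325_x_at, at 4046, 2199 and 3751 against 5000.2, 5055 and 5047, and for 1440133_x_at, at 1224, 791 and 2015 against 2133, 2069 and 2165. On the order of 1416753_at, 1434325_x_at, 1440132_s_at and 1440133_x_at, the log2 differences were 0.77, 0.64, 0.89 and 0.75 with limma adjusted p of 0.162, 0.217, 0.0837 and 0.266, and none passed. Without A/J array 3, 1440132_s_at was at 1.13 with an adjusted p of 0.0434. Without A/J array 2, the 4 differences were 0.52, 0.37, 0.73 and 0.43, all still positive (adjusted p = 0.314, 0.386, 0.205 and 0.503). The endings _s and _x mark probe sets whose probes can also match related transcripts. A/J array 2, the lowest on all 4, had the Gapdh ratio of 4.87. The DBA/2J arrays had the higher type I cell, mast cell, endothelial and photoreceptor sums. What part these markers had in the Prkar1b values was not tested.

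Within each array, the log2 ratio of the brightest Prkar1b to the brightest Prkar2b probe set was -0.13, -0.69 and 0.09 in A/J and 1.76, 0.62 and 1.58 in DBA/2J. Its level compares 2 probe sets and has no meaning by itself, but its change between arrays does not depend on their scaling. The groups did not overlap, with means of -0.24 ± 0.40 and 1.32 ± 0.62 (SD, n = 3 arrays each). The pair was chosen after its values were seen, so that this is a description with no test. The other regulatory subunits differed less. Prkar1a, the RI alpha subunit present in most tissues, had 3 probe sets from -0.09 to 0.40. On the highest of these, signals of 3411, 2345 and 3642 in A/J and 4023, 3862 and 4346 in DBA/2J did not overlap (adjusted p = 0.396, limma), and without A/J array 2 the difference was 0.21. Prkar2a, the RII alpha subunit, had 2 tested probe sets, at -0.14 and -0.19.

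**Figure D2:**
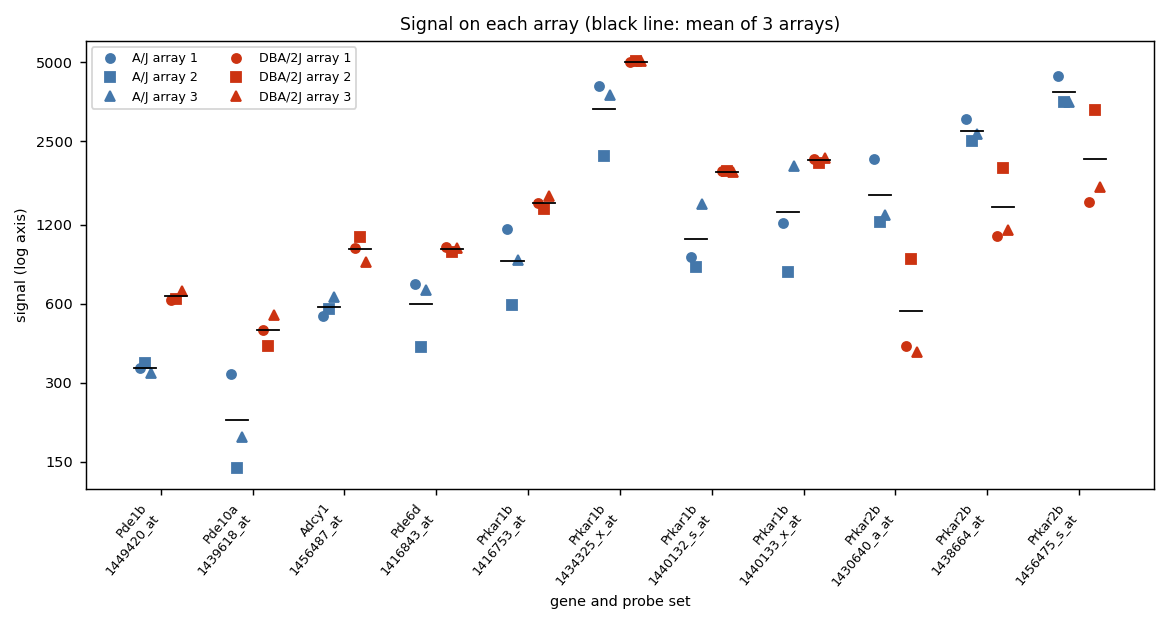
Signal on each of the 6 arrays (vertical log axis) for the tested probe sets of Pde1b, Pde10a, Adcy1, Pde6d, Prkar1b and Prkar2b (horizontal axis), A/J in blue and DBA/2J in red, with array numbers by marker shape and black lines for the means of 3 arrays. Pde1b shows tight groups, Prkar1b shows A/J array 2 lowest on its 4 probe sets, and Prkar2b shows DBA/2J array 2 nearest to A/J on its 3.

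**Figure D3:**
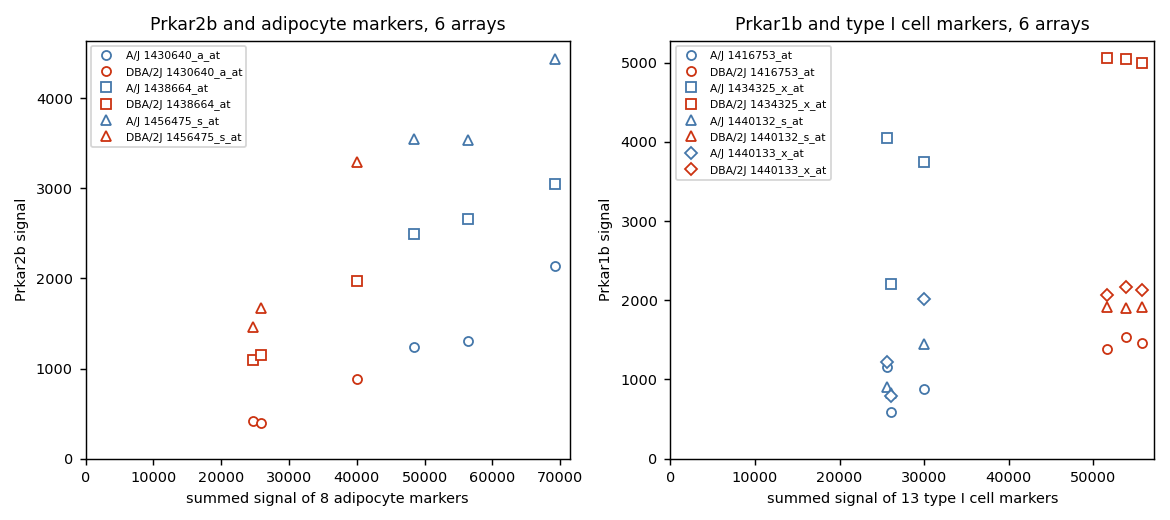
Left, signal of the 3 Prkar2b probe sets (vertical axis) against the summed signal of 8 adipocyte markers (horizontal axis) on the 6 arrays; right, signal of the 4 tested Prkar1b probe sets against the summed signal of 13 type I cell markers. Marker shapes stand for probe sets and colours for strains (A/J blue, DBA/2J red); the DBA/2J array at an adipocyte sum of 40018 has the highest Prkar2b signals of its strain.

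Promoters of 3 regulatory subunits are shown because the subunits differed in direction, with the windows defined as for Pde1b and capitals marking the core TGACG and the GC box GGGCGG on either strand. The Prkar1b window is at chr5:139149952-139150251 on the minus strand, the 1 of 5 starts with a core in its window, which holds 1 core and 2 GC boxes. The Prkar2b window is at chr12:32061228-32061527 on the minus strand, the one of 2 starts with GC boxes, of which it has 4, and neither start has the core. The Prkar1a window is at chr11:109650699-109650998 on the plus strand, 1 of 6 starts, and holds the full element TGACGTCA, which contains the core on both strands, 1 further core and 1 GC box.
Prkar1b: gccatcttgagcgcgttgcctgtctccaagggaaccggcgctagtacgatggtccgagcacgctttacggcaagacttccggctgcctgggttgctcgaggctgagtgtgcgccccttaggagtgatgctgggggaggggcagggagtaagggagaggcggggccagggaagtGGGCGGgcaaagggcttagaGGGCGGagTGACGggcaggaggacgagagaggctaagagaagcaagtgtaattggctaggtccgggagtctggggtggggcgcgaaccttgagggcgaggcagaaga
Prkar2b: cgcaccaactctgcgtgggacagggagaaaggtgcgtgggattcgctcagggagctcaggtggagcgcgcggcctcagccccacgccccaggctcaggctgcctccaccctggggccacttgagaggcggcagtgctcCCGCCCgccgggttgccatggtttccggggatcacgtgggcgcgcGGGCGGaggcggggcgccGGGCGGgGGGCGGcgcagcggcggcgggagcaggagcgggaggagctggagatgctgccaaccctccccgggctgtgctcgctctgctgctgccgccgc
Prkar1a: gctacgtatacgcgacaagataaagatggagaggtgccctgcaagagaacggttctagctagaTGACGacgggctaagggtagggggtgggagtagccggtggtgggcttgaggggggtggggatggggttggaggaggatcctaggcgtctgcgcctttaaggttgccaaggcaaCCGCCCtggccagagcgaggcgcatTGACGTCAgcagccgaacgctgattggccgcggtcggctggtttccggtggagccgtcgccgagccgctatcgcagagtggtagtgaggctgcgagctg

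In RefSeq promoters of GRCm38.p6, 30 of the 39 member genes were matched, with 67 windows. The core was present in 16 of the 67 windows (23.9%) and in 20.8% of all 32851, and the GC box in 27 (40.3%) and in 35.7%. The full element was found in 2 member windows, which overlap each other at Prkar1a, and in 1.79% of all. These matches are letters in a window and describe no binding.

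The series describes a rule of its own, in which a probe set differs by 1.5-fold or more in at least 6 of the 9 array pairs and has a p under 0.05. It was applied with the fold of each array pair and the unadjusted limma p in place of its unnamed test. A ratio of means of at least 1.5-fold in the same direction was required as well. Of 66 members 12 passed (18.2%), 7 higher and 5 lower, beside 9.98% of all tested probe sets. The 7 were those of Adcy1, Pde1b and Pde10a, 1 probe set of Pde2a and 3 of Prkar1b, and the 5 were 1 each of Pde4b and Pde7a and the 3 of Prkar2b. The 12 probe sets report on 8 genes.

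The rest of the pathway was described with 142 genes on 8 lists by role, of which 123 had a probe set named here and 90 were tested with 1 probe set per gene. Of the 90, 7 were called higher in DBA/2J, 0 were called lower and 83 did not pass, where 3.77% of 13006 genes were called in either direction, 2.17% higher and 1.6% lower. The arrays of the strains did not overlap for 24 of the 90, 19 higher and 5 lower, beside 22.7% of all genes tested. The median log2 difference over the 90 was 0.10, beside 0.01 over all genes tested.

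The called gene nearest to the enzyme was Pkib, a peptide inhibitor that binds free catalytic subunits of PKA. Its signals were 1505.5, 2760.5 and 1739 in A/J and 8071, 7410 and 7214 in DBA/2J. All DBA/2J values lay far above the highest A/J value, with a log2 difference of 1.96 (SE 0.23, adjusted p = 0.00224, limma). A second probe set gave 1.95 but did not pass (adjusted p = 0.0771). The related inhibitors Pkia and Pkig were at 0.02 and 0.11. Of 16 tested PKA inhibitors and anchors, Pkib was the 1 called, and Akap12, an anchor that also organises the cytoskeleton, was at -0.47 (adjusted p = 0.386).

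Of 15 tested receptors that raise cyclic AMP, 2 were called higher. Adcyap1r1, the receptor of the peptide PACAP, was 601, 633 and 608 in A/J and 1014, 1213 and 1212 in DBA/2J. The A/J arrays lay close together and well below the DBA/2J arrays, with a log2 difference of 0.88 (SE 0.18, adjusted p = 0.0328, limma). The call was lost with arrays scaled to one median (adjusted p = 0.0528) and without any array but DBA/2J array 2 (0.0748 to 0.131). A second probe set of it gave 0.32. The other was Olfr78, the olfactory receptor of type I cells, at 1.37 (adjusted p = 0.0113, limma), with 0.0629 without DBA/2J array 1. Its 2 other tested probe sets were called higher too, at 1.32 and 2.27 (adjusted p = 0.0165 and 0.000463, limma).

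Of 18 tested receptors that lower cyclic AMP, Cnr1 and P2ry12 were called higher. Cnr1, the cannabinoid receptor of neurons, was 431, 442 and 464 in A/J and 1376, 1302 and 1672.5 in DBA/2J. Its log2 difference was 1.66 (SE 0.19, adjusted p = 0.00179, limma), and it passed without each array in turn, while a second probe set gave 0.15. P2ry12, the ADP receptor, was at 2.03 and Drd2, the dopamine receptor that restrains type I cells, at 0.00. All 7 called pathway genes, Pkib among them, were higher together with the summed type I cell, mast cell, endothelial and photoreceptor markers. What part these markers had was not tested.

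Of 9 genes for G protein alpha subunits and their chaperones Ric8a and Ric8b, 6 other effectors and 7 CREB factors and coactivators, 0 were called, while 1, 1 and 0 had an unadjusted limma p under 0.05. Gnas, the stimulatory alpha subunit, was at 0.24 and Creb1, the transcription factor that PKA phosphorylates, at -0.04. Rapgef3, the exchange factor Epac1 that cyclic AMP opens without PKA, was at 0.12. Of 13 tested CREB-responsive genes, Penk, the enkephalin precursor, was called higher at 1.14. It lost the call without A/J array 1, A/J array 3 or DBA/2J array 1 (adjusted p = 0.0563, 0.0523 and 0.0724). The list median was -0.15. Nr4a1, an early response factor, was 3241, 2430 and 3637 in A/J and 1494.5, 1745 and 1966 in DBA/2J, without overlap and without passing (-0.82, adjusted p = 0.0748). On the side of cyclic GMP, 1 of 6 tested genes was called, Gucy1b1, the beta subunit of the nitric oxide receptor, at 1.46, while a second probe set gave 0.43 (adjusted p = 0.325). It was at an adjusted p of 0.0599 without A/J array 1 and 0.0644 without DBA/2J array 1. Prkg1, a kinase that cyclic GMP activates, was at 0.10.

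**Figure D4:**
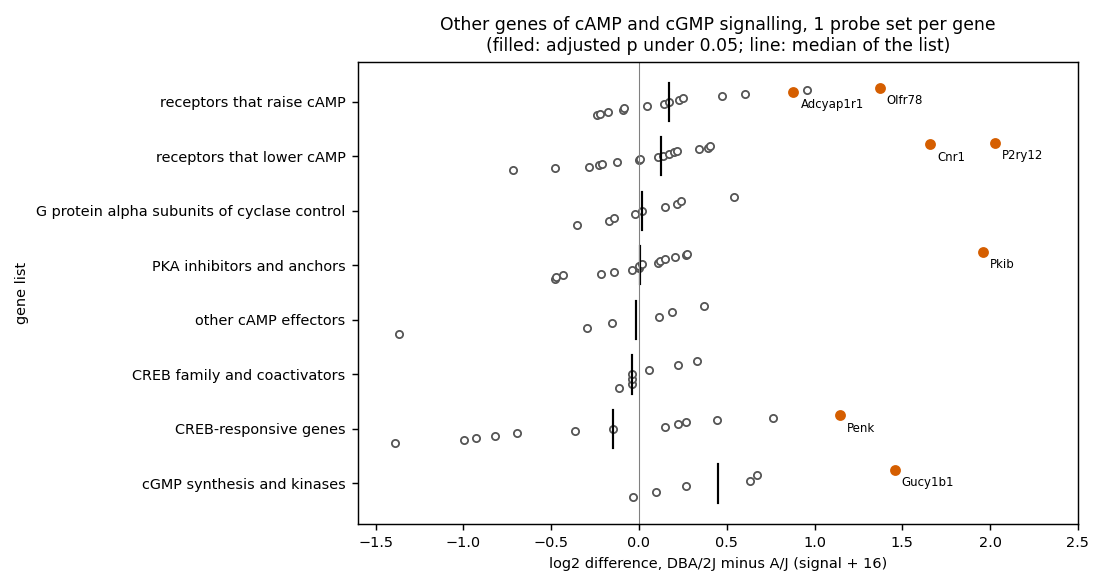
Log2 difference between strains (DBA/2J minus A/J, of signal + 16; horizontal axis) for 90 tested genes on 8 lists of cyclic AMP and cyclic GMP signalling (vertical axis), 1 probe set per gene, with black lines for list medians. The 7 filled points are the called genes, all to the right of 0, led by P2ry12 at 2.03 and Pkib at 1.96.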

How the data were processed

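RNA from pooled carotid bodies was extracted with Trizol and amplified with a small-sample protocol before hybridisation to Affymetrix Mouse 430 2.0 arrays, per the labels' protocols. The authors deposited linear intensity values, made by software that the sources used here do not name. Every array had a trimmed mean of 500 (2% off each end), and no further scaling was applied. No detection calls were used, so dim probe sets may be below background. Probe sequences were not examined, so what part base differences between the strains under the probes had in any signal was not tested. Where labels name no separate source for a pool, p-values measure the spread between these pools.

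After 64 control probe sets were left out, the upper 60% by mean log2(signal + 16) were kept. The strain contrast came from limma 3.58.1 in R 4.3.3 (lmFit, then eBayes with trend), two-sided, without covariates, and the code was tested on simulated data. For pathway genes and markers, the probe set with the highest mean stood for the gene, with p adjusted over all probe sets kept. Names come from the platform annotation at GEO, with symbols brought up to RefSeq's (GRCm38.p6). The rule for named genes allowed every member gene, every called pathway gene and 11 further pathway genes, of which Adora2a, Adora2b and Rapgef4 have no probe set named here; Nr4a1 and Pkig were added after their values were seen. Members, lists and roles were chosen with earlier results of these data known. Alternatives were other scalings, pseudocounts, filters, no trend, array weights, blocks, the series' rule, the mean over a gene's probe sets, and leaving out each array.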

Additional observations from a re-analysis of the deposited data

How the results depend on the processing

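The member count of 1 called probe set was 2 with arrays scaled to one median, with a pseudocount of 64 and with the upper 40% of probe sets, 10 with array weights (higher Adcy1, Pde1b, Pde10a and 2 of Prkar1b, lower Pde4b, Pde7a and the 3 of Prkar2b) and 12 under the series' rule. It ran from 0 (without DBA/2J array 1 or 3) to 4 (without DBA/2J array 2, Pde1b and the 3 of Prkar2b) when each array was left out, and the single call was another probe set than Pde1b without A/J array 1 (Pde10a), 2 (Pde4b) or 3 (Prkar1b). Calls over all 27022 tested probe sets moved too, from 883 to 834 with one median, 935 with a pseudocount of 64 and 3007 with array weights. They numbered 341, 1351 and 509 without DBA/2J array 1, 2 or 3, and 420, 640 and 395 without A/J array 1, 2 or 3. With the upper 40%, 713 of 18015 were called. The pathway count of 7 was 12 with array weights and 13 under the series' rule, and ran from 3 (without DBA/2J array 1) to 7 when each array was left out; it was 4 without A/J array 1. The replicate block was the number shared in the titles of 2 A/J and 2 DBA/2J arrays. As a fixed block, which leaves 1 residual degree of freedom, both counts were 0, as was that over all tested probe sets. As a random block the member and pathway counts were 1 and 7, beside 848 of all tested probe sets. The labels do not say what the number in the titles marks, and deviations of same-numbered arrays correlated at -0.26 and 0.04. None of the 24 probe sets followed singly, 17 of members and 7 of pathway genes, changed direction under any alternative run. The median over all tested probe sets moved by less than 0.1 under the scalings tried. A fit on 1 probe set per gene, added after seeing the data, called 7 pathway genes. With 3 arrays per strain and unknown background, dim members cannot be compared, and the cause of each change of call was not tested.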
